A study of Mus musculus with 6 samples.

Results

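The DNAJ or HSP40 family holds the J-domain co-chaperones of HSP70. Its members were taken here as the rows of the deposited gene table whose symbol begins with Dnaja, Dnajb or Dnajc and a number, which gave 44 of 16403 genes, with 4 in class A, 13 in class B and 27 in class C. RNA was measured by bulk sequencing in LSK cells, the lineage-negative, Sca-1-positive, Kit-positive marrow fraction with stem cells and early progenitors, sorted from C57BL/6 mice. Mice with ligature-induced periodontitis (LIP), in which a ligature tied around a tooth causes local gum inflammation, had been ligated for 7 days and gave 3 libraries. Unligated mice (NL, no ligature) were the controls and also gave 3 libraries. Each library was made from the pooled cells of 3 mice. The labels give neither the age nor the sex of these mice. The comparison of LIP with NL addressed what periodontitis does to the transcriptome of these marrow progenitors.

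An HSP70 chaperone binds and releases unfolded protein segments in a cycle driven by ATP. A J-domain protein delivers the substrate and stimulates ATP hydrolysis by HSP70 through its J domain, and a nucleotide exchange factor then resets the cycle. Class A proteins carry the J domain, a glycine and phenylalanine rich stretch and a zinc-binding region, class B proteins lack the zinc-binding region, and class C proteins share only the J domain and serve specialised tasks. Some cytosolic members, Dnajb1 above all, are known targets of heat shock factor 1, and some members of the endoplasmic reticulum are targets of the unfolded protein response.

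Library totals lay between 17780810 and 18841090 counts. The LSK marker list had all 8 of its members tested, with 3 higher and 0 lower in LIP, and its summed level was 2792 to 2823 CPM in LIP and 2691 to 2715 CPM in NL. CPM are counts relative to TMM-scaled library totals. Markers of other cell types were present at lower levels, and 5 of 7 lists had higher sums in all LIP libraries. By the calling rule given below, 15.8% of all tested genes were lower and 14.1% higher in LIP. Neutrophil markers, 9 of 9 tested members higher, summed to 328 to 348 CPM in LIP and 232 to 248 CPM in NL. Monocyte and macrophage markers, 5 of 8 higher and 1 lower, summed to 499 to 521 CPM in LIP and 380 to 388 CPM in NL, and B-lineage markers, 6 of 9 higher, to 91.2 to 94.7 CPM in LIP and 72.9 to 74.9 CPM in NL. T and NK cell markers, 2 of 5 higher, summed to 16.5 to 18.02 CPM in LIP and 12.9 to 13.9 CPM in NL. Erythroid sums (1 of 6 markers higher, 2 lower) overlapped, at 155 to 170.2 CPM in LIP and 163 to 169 CPM in NL. Megakaryocyte sums (3 of 5 markers higher) also overlapped, at 151 to 163 CPM in LIP and 141 to 155 CPM in NL. Of 3 tested stromal and endothelial markers, 1 was called higher and 1 lower. The 6 listed summed to 105 to 106 CPM in LIP and 92.4 to 96.0 CPM in NL. Most of that sum was Pdgfrb, called higher, which averaged 86.0 CPM in LIP and 72.5 CPM in NL. Emcn was called lower and averaged 17.1 CPM in LIP and 19.8 CPM in NL. No marker was at 0 in all libraries, and Ly6g and Lepr had fewer than 10 counts in each library. The part of these cells in the results on DNAJ genes was not tested.

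Of the 44 genes, 40 had enough counts to be tested, with 4 of 4 in class A, 11 of 13 in class B and 25 of 27 in class C. A gene was called when its adjusted p in edgeR's quasi-likelihood test was below 0.05. By that rule 12 members were lower and 9 were higher in LIP, and 19 were not called. Over all 12564 tested genes, 15.8% were called lower, 14.1% higher and 29.9% in either direction. In this fit the 12 falls and the 9 rises among 40 members are both larger shares than these. Without LIP replicate 2 there were 11 falls and 5 rises, where 12.8% of all genes were called lower and 11.4% higher, so the share of rises was then near the background. Class A had 3 members lower and 0 higher, class B had 5 lower and 2 higher, and class C had 4 lower and 7 higher. The 4 falls among 25 class C members are a share close to that over all genes. The median log2 fold change of tested members was -0.32 in class A, -0.25 in class B and -0.020 in class C, beside -0.00072 over all tested genes. The class B median is the value of Dnajb3, a gene with few counts that was not called, and leaving out 1 library moved it between -0.34, without NL replicate 3, and -0.12, without LIP replicate 2. The class C median was 0.024 with library totals alone and 0.034 without NL replicate 1. All LIP libraries lay below all NL libraries in 12 members, and above them in 10, where the shares over all tested genes were 21.0% and 19.9%. With library totals alone 8 members were lower and 10 higher, beside 10.4% and 21.9% of all genes. On the authors' TPM, where the median of all tested genes was itself 0.11, 8 were lower and 15 higher, beside 4.30% and 36.4% of all genes. The share of rises was near the background in both of these fits, and the share of falls was above it.

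**Figure D1:**
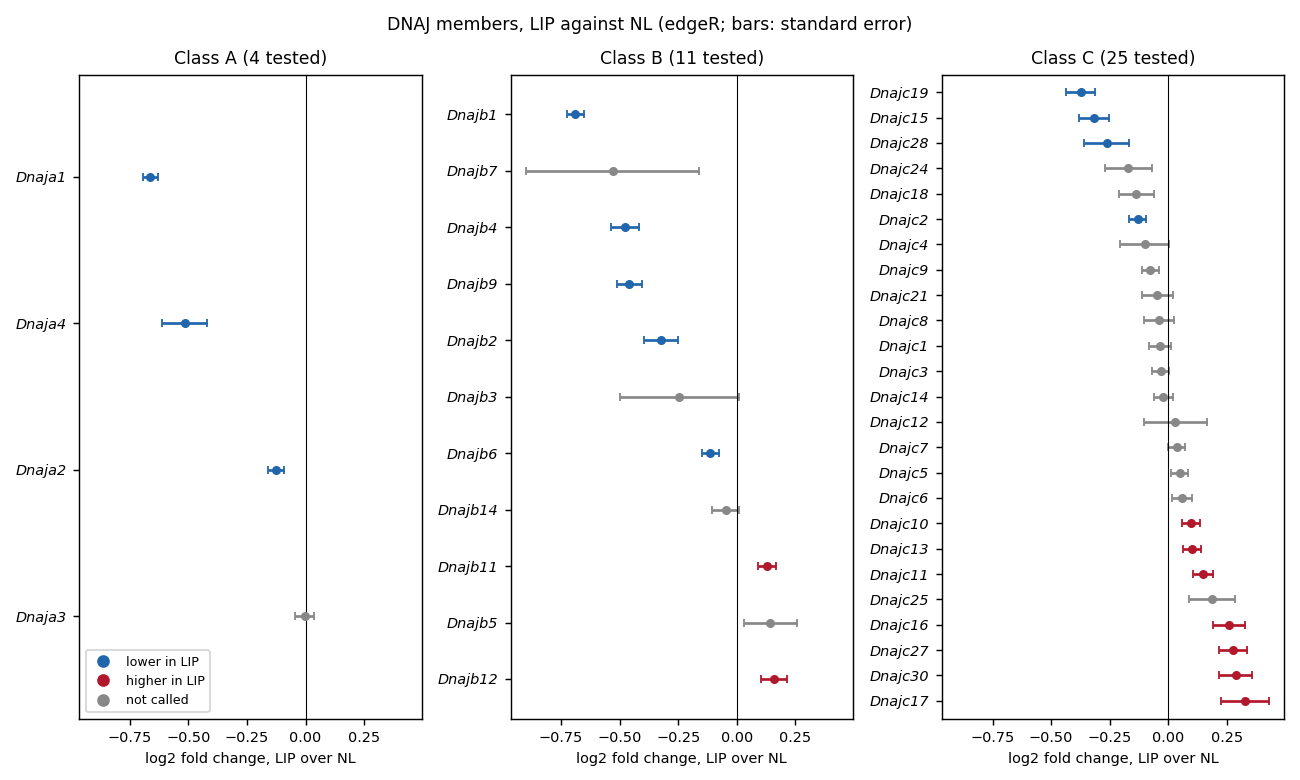
Log2 fold change of LIP over NL with its standard error for each of the 40 tested members, by class, from edgeR's quasi-likelihood test (3 libraries per group). Colour marks members called lower, called higher or not called. Dnajb1 at -0.69 and Dnaja1 at -0.66 stand furthest to the left, and the highest member is Dnajc17 at 0.33.

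The promoters of the members that fell most, and of the other called-lower members with a heat shock element match, are printed because heat shock factor 1 is a known regulator of part of the family. The windows run from 250 bases before to 50 bases after a transcript start, come from RefSeq on GRCm38.p6, and matched 36 of the 44 members. The motif was GAANNTTC or TTCNNGAA, a pair of inverted half-sites, and both forms read the same on either strand. A longer form of the heat shock element, with 1 further inverted half-site at the same spacing, was searched on both strands and holds an overlapping pair of the short matches. For a gene with several windows, the window with the most short matches is printed, or the first of equals. The other windows of Dnaja1, Dnaja4 and Dnajb4 had no short match. Capitals mark the short matches, of which Dnajb1 has none, and sequences are given 5′ to 3′ on the gene's strand.
Dnajb1, chr8:83607925-83608224, plus strand: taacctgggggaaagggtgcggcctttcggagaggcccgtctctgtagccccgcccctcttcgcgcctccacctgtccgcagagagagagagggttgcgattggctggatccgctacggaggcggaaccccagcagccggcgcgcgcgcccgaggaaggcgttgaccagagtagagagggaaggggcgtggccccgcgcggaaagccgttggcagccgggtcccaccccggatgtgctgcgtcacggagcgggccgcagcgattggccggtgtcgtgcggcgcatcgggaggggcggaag
Dnaja1, chr4:40722218-40722517, plus strand: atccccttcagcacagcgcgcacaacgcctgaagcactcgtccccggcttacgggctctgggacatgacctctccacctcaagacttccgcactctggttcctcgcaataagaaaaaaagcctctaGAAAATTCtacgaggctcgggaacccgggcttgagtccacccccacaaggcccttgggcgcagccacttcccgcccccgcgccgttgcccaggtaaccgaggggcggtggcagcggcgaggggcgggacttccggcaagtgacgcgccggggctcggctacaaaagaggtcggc
Dnaja4, chr9:54699309-54699608, plus strand: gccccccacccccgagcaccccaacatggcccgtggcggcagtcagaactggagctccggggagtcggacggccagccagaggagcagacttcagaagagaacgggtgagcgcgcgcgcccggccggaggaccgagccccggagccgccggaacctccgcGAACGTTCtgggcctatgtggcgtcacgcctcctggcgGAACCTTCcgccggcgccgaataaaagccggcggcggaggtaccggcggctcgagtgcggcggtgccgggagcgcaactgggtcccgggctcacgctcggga
Dnajb4, chr3:152193796-152194095, minus strand: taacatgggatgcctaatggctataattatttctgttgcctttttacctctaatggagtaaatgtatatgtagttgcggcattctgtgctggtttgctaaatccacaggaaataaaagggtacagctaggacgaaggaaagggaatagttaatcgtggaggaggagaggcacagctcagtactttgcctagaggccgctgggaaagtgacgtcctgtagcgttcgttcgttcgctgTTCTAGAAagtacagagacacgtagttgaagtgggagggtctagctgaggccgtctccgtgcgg
Dnajb6, chr5:29735648-29735947, plus strand: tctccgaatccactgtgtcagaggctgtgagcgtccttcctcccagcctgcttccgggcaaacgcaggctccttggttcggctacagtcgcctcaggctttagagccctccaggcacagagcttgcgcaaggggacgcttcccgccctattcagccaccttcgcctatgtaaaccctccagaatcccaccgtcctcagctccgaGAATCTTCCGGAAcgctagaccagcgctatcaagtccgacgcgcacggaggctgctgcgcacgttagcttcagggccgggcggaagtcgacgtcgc

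A short match was present in at least 1 window of 6 of 34 tested members with a sequence, or 17.6%, beside 14.1% of 10088 tested genes. It was present for 4 of 11 members called lower, for 2 of 7 called higher, Dnajc10 and Dnajc27, and for 0 of 16 not called. Members called lower had more windows per gene than those called higher. By window the match was in 5 of 18, or 27.8%, for lower and 2 of 7, or 28.6%, for higher members. It was in 0 of 22 windows of members not called, beside 11.9% of the windows of tested genes. The long form was found in Dnajb6 alone among the members, as GAATCTTCCGGAA, and in 0.565% of the tested genes. Both windows of Dnajb1, which had the largest fall, lacked the exact letters of either form. The consensus endoplasmic reticulum stress element, searched on both strands, matched Dnajc3 as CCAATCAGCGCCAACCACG and no other member, and matched 0.178% of the tested genes. These matches describe letters in a window and were not tested against binding.

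In class A, the cytosolic members fell and the mitochondrial one did not pass the test. Dnaja1, which encodes the abundant farnesylated cytosolic partner of HSC70 (chromosome 4, 40722468 to 40734965, GRCm38), had 246, 242 and 232 CPM in the LIP libraries, against 384, 392 and 363 CPM in the NL libraries. The groups did not overlap. It averaged 240.0 ± 7.59 CPM in LIP and 379.6 ± 15.1 CPM in NL (SD, n = 3 each, as for all means of libraries), a log2 fold change of -0.66 ± 0.033 (SE) with an adjusted edgeR p of 2.22e-24. In bulk RNA, fewer cells expressing a gene and less RNA per cell cannot be told apart.

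Dnaja4, a cytosolic paralog of Dnaja1 at a much lower level, had 7.90, 7.89 and 8.83 CPM in the LIP libraries, against 10.8, 12.1 and 12.3 CPM in the NL libraries. Again all LIP libraries were below all NL libraries, and the log2 fold change was -0.52 ± 0.096 (SE) (adjusted edgeR p 2.37e-05). Dnaja2, the other cytosolic class A gene, had 162, 164 and 155 CPM in the LIP libraries, against 176, 176 and 173 CPM in the NL libraries. Its fall was small, -0.13 ± 0.035 (SE) on the log2 scale with an adjusted edgeR p of 0.00313. The call was lost with library totals alone, at -0.083, and with the length and GC offset, at -0.072, and on the authors' TPM the difference was -0.00030 with the groups overlapping. Dnaja3, the mitochondrial class A protein also called Tid1, averaged 85.6 ± 1.96 CPM in LIP and 85.8 ± 0.578 CPM in NL, with a log2 fold change of -0.0038 ± 0.040 (SE) and an adjusted edgeR p of 0.961, and its libraries overlapped. Its sign was not stable to scaling, with 0.040 with library totals alone and 0.12 on the authors' TPM, where it was called higher (adjusted limma p 0.0188).

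In class B, the cytosolic genes Dnajb1, Dnajb4, Dnajb2 and Dnajb6 and the endoplasmic reticulum gene Dnajb9 fell, and the endoplasmic reticulum genes Dnajb11 and Dnajb12 rose. Dnajb1, the founding heat-inducible HSP40 (chromosome 8, 83608175 to 83612653, GRCm38), had 100.2, 101 and 98.2 CPM in the LIP libraries, against 159, 163 and 161 CPM in the NL libraries. The 3 LIP values lay close together and far below the 3 NL values. The log2 fold change was -0.69 ± 0.036 (SE), or -38.0%, with an adjusted edgeR p of 8.52e-24. Dnajb4, its close cytosolic relative (chromosome 3, 152181580 to 152210432), had 25.6, 23.6 and 23.9 CPM in the LIP libraries, against 35.5, 31.5 and 34.8 CPM in the NL libraries. The groups were apart in every library, with a log2 fold change of -0.48 ± 0.060 (SE) (adjusted edgeR p 4.91e-09).

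Dnajb2, a cytosolic co-chaperone with ubiquitin-binding motifs, had 15.4, 15.4 and 14.7 CPM in the LIP libraries, against 19.2, 19.1 and 18.6 CPM in the NL libraries, a log2 fold change of -0.32 ± 0.074 (SE) (adjusted edgeR p 4.81e-04). Dnajb6, known as a suppressor of polyglutamine aggregation, had 137, 132 and 127 CPM in the LIP libraries, against 145, 139.6 and 144 CPM in the NL libraries. All LIP values were below all NL values by a small step, -0.11 ± 0.036 (SE) on the log2 scale (adjusted edgeR p 0.0125). This call was lost with library totals alone, at -0.070, on the authors' TPM, at -0.017, without LIP replicate 3 and without NL replicate 1. Dnajb6 counts were not whole numbers, so part of its reads may have been divided between features. Dnajb5, a cytosolic relative of Dnajb1, averaged 7.22 ± 0.368 CPM in LIP and 6.54 ± 0.371 CPM in NL with overlapping libraries, and its log2 fold change was 0.14 ± 0.11 (SE) (adjusted edgeR p 0.366). On the authors' TPM it was called higher, at 0.21 (adjusted limma p 0.0400).

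Of the class B genes of the endoplasmic reticulum, Dnajb9, a lumenal protein known as ERdj4 that binds and restrains the stress sensor IRE1, had 33.1, 33.6 and 33.0 CPM in the LIP libraries, against 46.4, 45.9 and 44.5 CPM in the NL libraries. The groups were apart, with a log2 fold change of -0.46 ± 0.052 (SE) (adjusted edgeR p 2.09e-10). Dnajb11, a lumenal partner of BiP known as ERdj3, had 100.4, 102 and 100.5 CPM in the LIP libraries, against 93.0, 92.5 and 91.3 CPM in the NL libraries. It was higher in every LIP library, by 0.13 ± 0.038 (SE) on the log2 scale (adjusted edgeR p 0.00647). Dnajb12, a membrane protein whose J domain faces the cytosol, had 34.3, 35.7 and 37.2 CPM in the LIP libraries, against 31.3, 33.1 and 31.6 CPM in the NL libraries, a log2 fold change of 0.16 ± 0.056 (SE) (adjusted edgeR p 0.0240). The call of Dnajb12 was lost in DESeq2 and when LIP replicate 2, LIP replicate 3, NL replicate 1 or NL replicate 3 was left out. Its paralog Dnajb14 averaged 32.7 ± 2.07 CPM in LIP and 33.8 ± 1.94 CPM in NL and was not called, at -0.048 ± 0.058 (SE) on the log2 scale (adjusted edgeR p 0.579).

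The remaining class B genes had few counts. Dnajb3, a J-domain gene known from male germ cells, had 36, 16 and 28 counts in LIP and 32, 36 and 21 in NL, and Dnajb7 had 8, 8 and 12 counts in LIP and 15, 12 and 11 in NL. Their log2 fold changes, -0.25 ± 0.25 (SE) and -0.53 ± 0.37 (SE), had adjusted edgeR p of 0.504 and 0.298. The untested class B genes were Dnajb8, with at most 1 count per library, and Dnajb13, which encodes an axonemal protein, with 1 to 3 counts in LIP and 3 to 6 counts in NL. All LIP libraries were below all NL libraries for Dnajb13 after scaling, at 0.0553 to 0.157 CPM in LIP and 0.171 to 0.340 CPM in NL, around the floor of 3 counts. In the edgeR fit without a filter it stood at -0.84 ± 0.75 (SE) with an adjusted p of 0.498, and Dnajb8 had an adjusted p of 0.557.

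**Figure D2:**
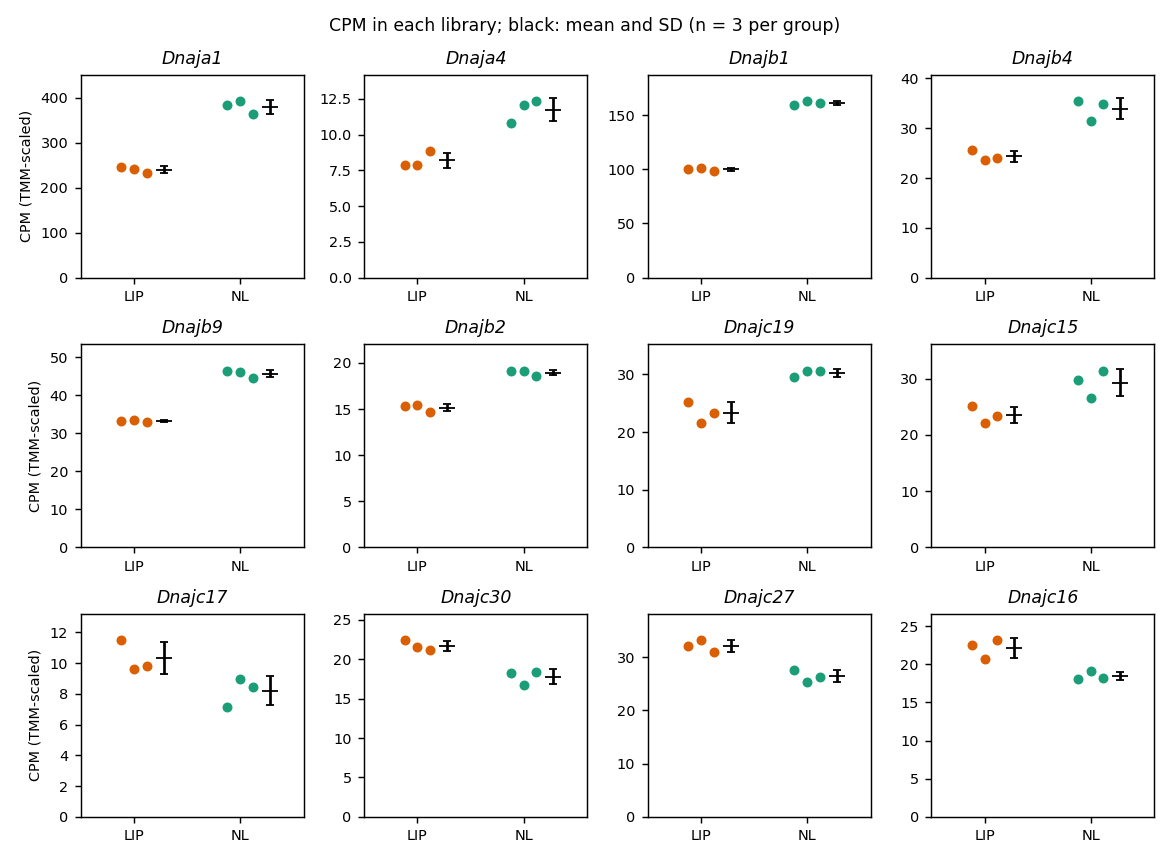
TMM-scaled CPM of 12 members in each library, LIP left and NL right, with the mean and SD of 3 libraries in black and every axis starting at 0. Dnajb1 stands at 98.2 to 101 CPM in LIP and 159 to 163 CPM in NL, and Dnajc30 at 21.2 to 22.4 CPM in LIP and 16.7 to 18.4 CPM in NL.

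Class C went in both directions, with more rises than falls. Without a length offset, the lowest log2 fold changes were those of a pair of mitochondrial inner membrane genes. Dnajc19, a subunit of the import motor of the TIM23 translocase (chromosome 3, 34057280 to 34081354), had 25.2, 21.6 and 23.3 CPM in the LIP libraries, against 29.5, 30.5 and 30.7 CPM in the NL libraries. All LIP libraries were lower, with a log2 fold change of -0.37 ± 0.062 (SE) (adjusted edgeR p 2.61e-06), from counts that were not whole numbers. Dnajc15, a related protein known as MCJ that restrains respiratory complex I, had 25.1, 22.2 and 23.4 CPM in the LIP libraries, against 29.8, 26.7 and 31.5 CPM in the NL libraries, a log2 fold change of -0.32 ± 0.064 (SE) (adjusted edgeR p 8.79e-05).

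These are the shortest tested transcripts of the family, with effective lengths of 561 bases for Dnajc15 and 665 bases for Dnajc19, beside a median of 2270 bases over the 40 members. Effective length is the length implied by the authors' counts and FPKM. Over all tested genes the log2 fold change rose with effective length, with a Spearman correlation of 0.275 across 12564 genes, which share the same 6 libraries. Across the 40 members it was 0.125. The log2 fold change also rose with GC content, with a Spearman correlation of 0.237 over 12374 genes and 0.403 across the 40 members. With an offset for this length trend Dnajc15 stood at -0.14 (adjusted edgeR p 0.104) and Dnajc19 at -0.22 (adjusted edgeR p 0.00421). With an offset for length and GC content they stood at -0.095 and -0.12, with adjusted edgeR p of 0.272 and 0.121. Dnaja1 and Dnajb1 had -0.59 and -0.73 in that last fit and kept their calls.

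**Figure D3:**
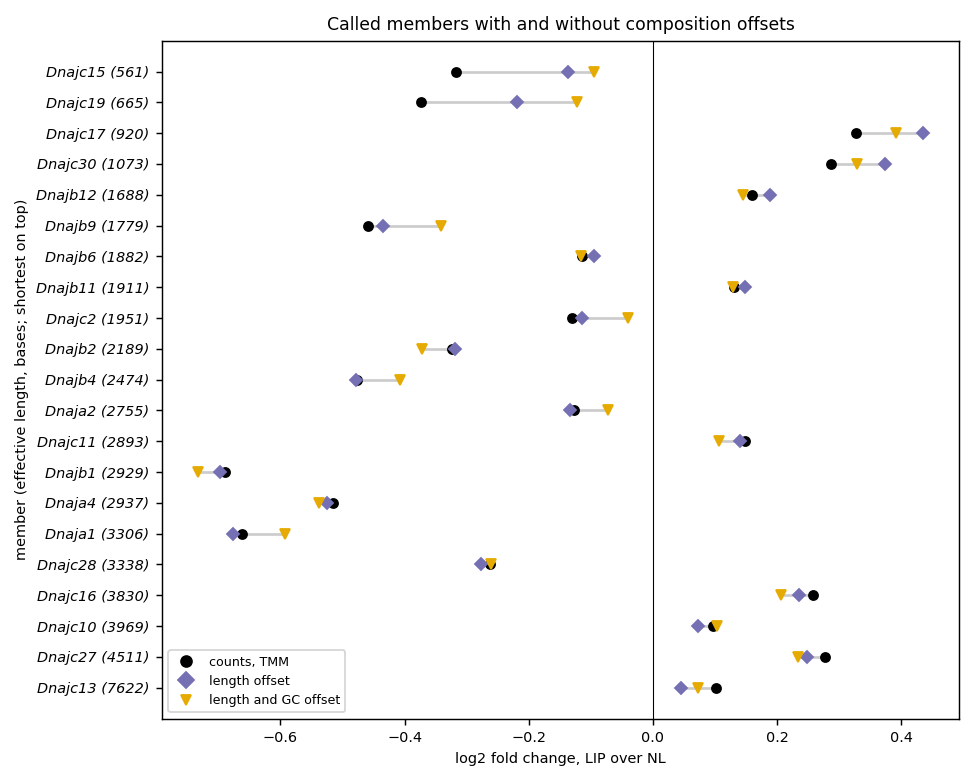
Log2 fold change of LIP over NL for the 21 called members from TMM-scaled counts, with a length offset, and with a length and GC offset, ordered from the shortest effective length at the top to the longest at the bottom. Dnajc15 and Dnajc19 move towards 0, to -0.095 and -0.12 with both offsets, while Dnajb1 stays between -0.69 and -0.73.

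The other class C genes called lower were Dnajc28 and Dnajc2. Dnajc28, a little studied gene listed here as mitochondrial, had 8.68, 9.04 and 9.56 CPM in the LIP libraries, against 10.6, 11.9 and 10.2 CPM in the NL libraries. It was lower in every LIP library, at -0.26 ± 0.095 (SE) on the log2 scale (adjusted edgeR p 0.0302), and the call was lost in 7 of 18 alternative fits, among them DESeq2, library totals alone and each of 4 fits without 1 library, LIP replicate 1, LIP replicate 2, NL replicate 1 or NL replicate 2. With the length offset it stood at -0.28, below Dnajc19 and Dnajc15 in that fit, and with the length and GC offset at -0.26 (adjusted edgeR p 0.0344), where it was the 1 class C gene called lower. Dnajc2, a ribosome-associated co-chaperone that acts on nascent chains, had 120.3, 123 and 116 CPM in the LIP libraries, against 130.2, 133 and 131 CPM in the NL libraries. Its log2 fold change was -0.13 ± 0.036 (SE) (adjusted edgeR p 0.00411). That call was lost with library totals alone, at -0.087, with the length and GC offset, at -0.039, and on the authors' TPM, at -0.0032.

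The rises of class C were led by Dnajc17, a nuclear protein linked to splicing. It had 11.5, 9.62 and 9.82 CPM in the LIP libraries, against 7.17, 8.96 and 8.48 CPM in the NL libraries. The lowest LIP library stood just above the highest NL library, and the log2 fold change was 0.33 ± 0.10 (SE) (adjusted edgeR p 0.0108), a call lost in DESeq2 and without LIP replicate 1 or NL replicate 1. Dnajc30, a mitochondrial protein linked to the respiratory chain (chromosome 5, 135064206 to 135065365), had 22.4, 21.6 and 21.2 CPM in the LIP libraries, against 18.3, 16.7 and 18.4 CPM in the NL libraries. All LIP libraries were higher, with a log2 fold change of 0.29 ± 0.070 (SE) (adjusted edgeR p 9.91e-04). Dnajc27, which joins a Rab-like GTPase to a J domain, had 32.0, 33.2 and 30.9 CPM in the LIP libraries, against 27.7, 25.4 and 26.2 CPM in the NL libraries, a log2 fold change of 0.28 ± 0.059 (SE) (adjusted edgeR p 1.78e-04). Dnajc30 and Dnajc27 did not have whole counts, so part of their reads may have been divided between features. Dnajc16, a membrane protein of the endoplasmic reticulum, had 22.5, 20.7 and 23.2 CPM in the LIP libraries, against 18.1, 19.1 and 18.3 CPM in the NL libraries, a log2 fold change of 0.26 ± 0.069 (SE) (adjusted edgeR p 0.00274). The calls of Dnajc30, Dnajc27 and Dnajc16 held in all the alternative fits that included them.

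Smaller rises were seen in Dnajc11, Dnajc13 and Dnajc10. Dnajc11, part of the complex that shapes mitochondrial cristae, had 77.2, 83.2 and 75.0 CPM in the LIP libraries, against 70.1, 74.0 and 68.5 CPM in the NL libraries, with a log2 fold change of 0.15 ± 0.044 (SE) (adjusted edgeR p 0.00683), a call lost without LIP replicate 2. Dnajc13, the endosomal sorting protein RME-8, had 96.6, 97.5 and 91.8 CPM in the LIP libraries, against 88.9, 87.0 and 90.4 CPM in the NL libraries. The groups were apart, the log2 fold change was 0.10 ± 0.039 (SE) (adjusted edgeR p 0.0427) and the call was lost in 8 of 18 alternative fits, with 0.046 under the length offset, and without LIP replicate 1, LIP replicate 2, NL replicate 1 or NL replicate 2. Dnajc10, the disulfide reductase ERdj5 of the endoplasmic reticulum, averaged 119 ± 1.47 CPM in LIP and 111 ± 2.66 CPM in NL, a log2 fold change of 0.097 ± 0.037 (SE) (adjusted edgeR p 0.0382), with the call lost in 6 of 18 alternative fits, with 0.072 under the length offset, and without LIP replicate 1, LIP replicate 2, NL replicate 2 or NL replicate 3.

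The 14 class C members that were not called had log2 fold changes between -0.17 for Dnajc24, which acts in diphthamide synthesis, and 0.19 for Dnajc25. The 95% interval was -0.36 to 0.024 for Dnajc24 and -0.0046 to 0.38 for Dnajc25. They include Dnajc8, Dnajc9 and Dnajc7, the class C genes with the highest TPM. Dnajc8, a splicing-associated protein, had 139.6, 132 and 131 CPM in the LIP libraries, against 150.1, 141 and 123 CPM in the NL libraries. The NL values spread more widely than the LIP values and overlapped them, and the log2 fold change was -0.039 ± 0.062 (SE) (adjusted edgeR p 0.695). Without NL replicate 3 it was -0.11 and called, with an adjusted edgeR p of 0.0373. Its sign turned with library totals alone, with either offset, on the authors' TPM and without NL replicate 1.

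Dnajc9, a histone chaperone of H3 and H4, averaged 140.5 ± 3.19 CPM in LIP and 148 ± 5.34 CPM in NL, with a log2 fold change of -0.077 ± 0.036 (SE) (adjusted edgeR p 0.10) that turned positive on the authors' TPM. Dnajc7, which links HSP70 and HSP90 through its tetratricopeptide repeats, averaged 140.2 ± 4.20 CPM in LIP and 137 ± 5.11 CPM in NL, at 0.037 ± 0.037 (SE) on the log2 scale (adjusted edgeR p 0.484), and was called on the authors' TPM, at 0.16. The untested class C rows were Dnajc22, with at most 1 count per library, and Dnajc19-ps, a pseudogene of Dnajc19 with at most 1 count after rounding.

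Levels between genes were compared per length, on the authors' TPM. Over the family they ran from 184 ± 5.01 TPM in LIP and 173 ± 17.7 TPM in NL for Dnajc8 down to 0.803 ± 0.179 TPM in LIP and 1.07 ± 0.185 TPM in NL for Dnajb7, the lowest tested member. In LIP the order after Dnajc8 was Dnajc9, Dnajc7, Dnaja1 and Dnajb6, at 163 ± 3.88, 134 ± 5.28, 129.9 ± 4.64 and 124 ± 5.28 TPM, and among these last 3 the libraries of neighbours overlapped. In NL Dnaja1 was the highest of all at 188 ± 7.13 TPM, and its libraries overlapped those of Dnajc8. Dnaja1 made up 6.80%, 6.85% and 6.70% of the summed TPM of the 44 rows in the LIP libraries, against 9.74%, 10.04% and 9.55% in the NL libraries. Dnajb1 made up 3.12%, 3.24% and 3.21% in LIP, against 4.56%, 4.71% and 4.79% in NL. The class C share was 63.6%, 63.3% and 63.2% in LIP, against 59.8%, 59.4% and 59.3% in NL. The summed TPM of the whole family overlapped, at 1931, 1952 and 1861 in LIP and 1960.2, 1926 and 1884 in NL. On the authors' TPM the median log2 fold change of all tested genes was itself 0.11. Overlapping TPM sums therefore do not show an unchanged family level on the TMM scale.

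**Figure D4:**
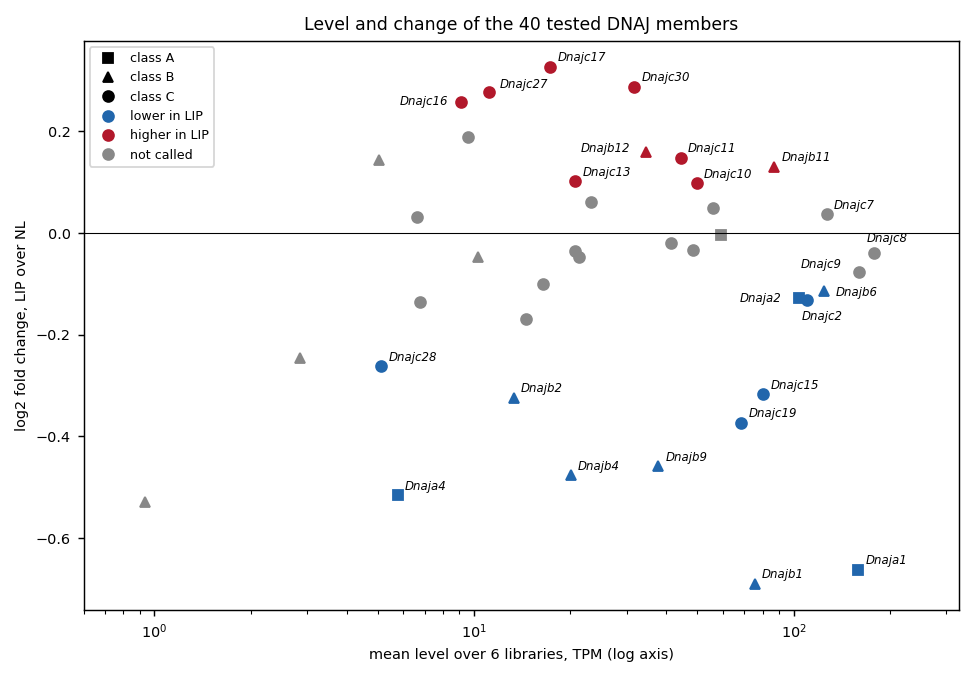
Mean level over the 6 libraries in TPM, on a log axis, against the log2 fold change of LIP over NL for the 40 tested members, with shape for class and colour for the call. Members lower in LIP lie at all levels, from Dnajc28 and Dnaja4 near 5 TPM to Dnaja1 above 100 TPM, and the abundant members Dnajc8, Dnajc9 and Dnajc7 lie near 0.

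Grouped by the place where the proteins work, the canonical cytosolic and nuclear members had 7 of 8 lower and 0 higher, and their log2 fold changes had a median of -0.40. The member that did not pass the test was Dnajb5, which was called higher on the authors' TPM. Dnaja2 and Dnajb6 lost their calls with library totals alone and on the authors' TPM, as given above. The grouping and the lists were chosen with results of these data known. The shares over all tested genes were 15.8% called lower and 14.1% called higher. The endoplasmic reticulum members had 1 of 8 lower, Dnajb9, and 4 higher, Dnajb11, Dnajb12, Dnajc10 and Dnajc16, with a median of 0.032. The calls of Dnajb12 and Dnajc10 were lost in 5 and 6 of 18 alternative fits, in both cases with DESeq2 among them. The mitochondrial members had 3 of 7 lower and 2 higher with a median of -0.10. Of these, Dnajc15 lost its call with the length offset, and Dnajc19 only with the length and GC offset, as given above. Of 6 members of the nucleus, splicing and translation 1 was lower and 1 higher, and of 3 members of vesicles and endocytosis 1 was higher, Dnajc13, while Dnajc5 and Dnajc6 stood at 0.049 and 0.061. Dnajc5 encodes the cysteine string protein and Dnajc6 the clathrin-uncoating factor auxilin. Of J-domain genes outside the naming pattern, Hscb was called lower, at -0.18, and Gak and Sec63 were called higher, at 0.10 and 0.16.

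The HSP70 genes and their exchange factors, with which these proteins work, had 14 of 26 tested members lower and 2 higher, Bag6 and Hyou1, and a median of -0.12 on the log2 scale. Over all tested genes, 15.8% were called lower and 14.1% higher. Among the lower members of the list the inducible genes Hspa1a and Hspa1b, near-identical copies without whole counts, had a summed level of 2.79, 1.85 and 2.29 TPM in LIP, against 71.3, 69.0 and 70.3 TPM in NL. Hspa8, the constitutive cytosolic HSP70 gene, had 3817, 3862 and 3630.4 TPM in LIP, against 4405, 4431 and 4579 TPM in NL, and a log2 fold change from counts of -0.37 ± 0.037 (SE). For every 100 TPM of Hspa8 there were 3.44, 3.46 and 3.44 TPM of Dnaja1 in LIP, against 4.33, 4.36 and 3.93 in NL, and 1.58, 1.64 and 1.64 TPM of Dnajb1 in LIP, against 2.03, 2.05 and 1.97 in NL. For every 100 TPM of Dnajb1 the Hspa1a and Hspa1b sum was 4.63, 2.93 and 3.84 TPM in LIP, against 79.7, 76.1 and 77.9 in NL. The exchange factor genes Hsph1, Hspa4l and Bag3 fell by 0.74, 0.41 and 0.41, and Hspa12b, an atypical HSP70, fell by 0.50, on the log2 scale (adjusted edgeR p 7.98e-26, 5.27e-11, 7.18e-06 and 4.39e-05).

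In the endoplasmic reticulum the HSP70 gene Hspa5, which encodes BiP, stood at -0.16 ± 0.032 (SE) and was called lower (adjusted edgeR p 9.98e-05), although on the authors' TPM it was -0.031 and not called. Of its exchange factor genes, Hyou1 was higher, at 0.15 ± 0.033 (SE) on the log2 scale (adjusted edgeR p 2.06e-04). Sil1, another of them, was not called, at -0.052 ± 0.052 (SE) (adjusted edgeR p 0.4925). Neither tested heat shock factor gene was called, with Hsf1 at 0.13 ± 0.052 (SE) (adjusted edgeR p 0.0645) and Hsf2 at -0.085 ± 0.077 (SE) (adjusted edgeR p 0.442). Of the HSP90, chaperonin and small heat shock list 5 of 12 tested members were lower, Chordc1, Hsp90aa1, Hspd1, Hspe1 and Stip1, and 1 was higher, Hspb6. The shares over all tested genes were 15.8% lower and 14.1% higher.

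Exons of 16 of the 44 members overlap those of another annotated gene, and of a protein-coding one in 11, in GENCODE M21 on GRCm38. No source used here says whether the counting used strand, so reads from such stretches cannot be told apart. Dnaja1 shares up to 608 bases with an exon of Smu1 on the opposite strand, and Smu1 stood at -0.062 ± 0.040 (SE) with an adjusted edgeR p of 0.252. Dnaja4 shares up to 1581 bases with Wdr61, which stood at -0.037 ± 0.045 (adjusted edgeR p 0.578). Dnajc30 shares up to 436 bases with an exon of Bud23, at 0.11 ± 0.059 (adjusted edgeR p 0.187), and Dnajc17 shares up to 108 bases with Zfyve19, at 0.025 ± 0.052 (adjusted edgeR p 0.769). Dnajc19 shares up to 91 bases with an exon of Fxr1, which was itself lower at -0.37 ± 0.037 (adjusted edgeR p 5.20e-12). Dnajb1, Dnajb4, Dnajb2, Dnajc27 and Dnajc16 had no exon overlap with another gene in that annotation.

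The spread between libraries of a group was small for most members. The biological coefficient of variation that edgeR estimated, the square root of the dispersion, lay between 2.40% for Dnajb11 and 8.99% for Dnajb3. It was 2.80% for Dnaja1 and 2.49% for Dnajb1. This estimate is drawn towards that of other genes and leaves out counting error, so the observed spread can be larger. Dnajb3 averaged 1.43 ± 0.578 CPM in LIP, and Dnajc8 averaged 138 ± 13.7 CPM in NL. Each library averages 3 mice, so this spread is between pools and not between single animals.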

How the data were processed

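RNA from sorted LSK cells was measured in 3 LIP and 3 NL libraries, each pooled from 3 mice. Per the labels' protocols, libraries were made by polyA selection and read in pairs of 100 bp (BGISEQ), with 45.0 M reads in the average sample. The submitters' processing notes name STAR, HTSeq and the build GRCm38, and give no version or role. The deposited table holds the authors' expected counts (estimated counts, not whole for all genes), and per the file headers also FPKM and TPM values. No source used here names the tool behind the estimated counts. The authors' group means were not used.

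Estimated counts, found where whole counts had been assumed, were rounded for the same test. Of 16403 genes, filterByExpr kept 12564. LIP was compared with NL by edgeR 4.0.16 (R 4.3.3), with TMM scaling and a robust quasi-likelihood test, group as the only term, and Benjamini-Hochberg adjustment over all tested genes, with a call at an adjusted p below 0.05. Standard errors were derived from the test statistic, and 95% intervals from a normal approximation. CPM are TMM-scaled, and 3 counts equal 0.159 to 0.169 CPM, a floor that covers counting error only. The effective length was taken from the authors' FPKM and counts, and GC content from the longest GENCODE M21 transcript, known for 98.5% of tested genes. Length and GC trends were removed per library with lowess (span 0.3), without ribosomal protein and respiratory chain genes in the curve. The test had been checked on simulated data.

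The named genes were all tested class A and B members, the called class C members, the 3 most abundant members of each class and up to 8 called partners. Hyou1, Sil1, Bag6, Hsf1, Hsf2, Dnajc24, Dnajc25, Dnajc5, Dnajc6, Hscb, Gak and Sec63 are outside this rule, picked once their values had been seen. So are Pdgfrb, Emcn, the called members of the HSP90 list and the overlapping genes. The members and lists were chosen with earlier results of these data known. Alternatives were DESeq2 1.42.0, limma-voom (limma 3.58.1), other scalings and filters, non-robust estimation, a replicate block, a length offset, genes with whole counts, and leaving out each library. The length and GC offset and limma on the authors' log2(TPM + 1) were chosen after seeing the data. Within groups, counts of any 2 libraries differed by more than sampling noise, with a chi-square per degree of freedom of 1.87 to 2.78, so no library was taken as deposited more than once.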

Additional observations from a re-analysis of the deposited data

How the results depend on the processing

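The falls of Dnaja1, Dnaja4, Dnajb1, Dnajb4, Dnajb9 and Dnajb2 and the rises of Dnajb11, Dnajc30, Dnajc27 and Dnajc16 kept their direction and their call in all alternative fits that held them. With library totals alone class C had 2 members lower, and the medians were -0.28 in class A, 0.024 in class C and 0.00099 over all classes. DESeq2 called 1 member higher in class B, 4 in class C and 5 in all, beside 9.39% of the genes it gave an adjusted p. The length offset moved the class B median to -0.14. The length and GC offset left 1 member lower in class C, with a class C median of 0.030. On the authors' TPM the median of all tested genes was itself 0.11, and 1 member was higher in class A, 11 in class C and 15 in all, 2 were lower in class C, and the medians were -0.17 in class A, -0.11 in class B, 0.10 in class C and 0.087 over all classes. The cause of these shifts was not tested.

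Over the members and partners named by the rule, in the alternatives that held them, signs turned only in members that were not called. Dnaja3 was at 0.040 with library totals alone and 0.12 on TPM, and leaving out a library gave -0.016 to 0.015, with 0.0032 without NL replicate 1. Dnajc8 was at 0.0049 with library totals alone, 0.020 with the length offset, 0.060 with the length and GC offset and 0.094 on TPM, and leaving out a library gave -0.11 to 0.028. Dnajb14 was at 0.067 and Dnajc9 at 0.052 on TPM. Dnajb3 ranged from -0.55 without LIP replicate 1 to 0.028 without LIP replicate 2.

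Leaving out each library in turn gave 10 to 13 members lower and 5 to 8 higher over all classes. Of all genes tested in these fits, 12.2% to 14.3% were lower and 11.3% to 12.6% higher. Class A had 3 lower and 0 higher, class B had 4 to 5 lower and 1 to 2 higher, and class C had 3 to 5 lower and 4 to 7 higher. The medians ranged from -0.34 to -0.30 in class A, -0.34 to -0.12 in class B, -0.017 to 0.034 in class C and -0.091 to -0.019 over all classes. The count of higher members was lowest, at 5, without LIP replicate 2, and the class B count of 2 higher became 1 without LIP replicate 2, LIP replicate 3, NL replicate 1 or NL replicate 3. The class C count of 7 higher became 4 without LIP replicate 1 or LIP replicate 2.

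The replicate numbers are shared by the groups, but same-numbered libraries did not deviate together, with correlations of 0.0295, -0.0163 and -0.113. Differently numbered libraries had correlations of -0.112 to 0.132. These values give no sign of pairing but cannot show that the libraries are unpaired. With the replicate block 12 members were lower and 9 higher, as without it, and no class count changed. The depth limits Dnajb3, Dnajb7 and the 4 untested rows.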
